A study of Mus musculus with 13 samples.

Results

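A set of 10 genes, the members, was followed in mouse liver RNA: the DNA methyltransferases Dnmt1, Dnmt3a and Dnmt3b, the Dnmt1 partner Uhrf1, the DNA demethylating enzymes Tet1, Tet2 and Tet3, and the histone methyltransferases Ezh1, Ezh2 and Ash1l. They were chosen by name and function with earlier results of these data known, and are 10 of the 23019 genes listed in all 3 deposited count tables. Livers came from C57 mice aged 3 months, which the study's methods give as male. The mice formed 3 groups: 5 mice without bile duct ligation (no BDL), 4 ligated mice injected with a control oligonucleotide (miR-Ctrl BDL) and 4 ligated mice injected with an inhibitor of the microRNA miR-873-5p (anti-miR-873-5p BDL). Bile duct ligation ties off the bile duct and gives cholestatic liver injury. Oligonucleotides went in by tail vein on days 3 and 5 after ligation at 60 µg for each animal, and livers were taken on day 7. No oligonucleotide or sham surgery is named for the no BDL mice, so surgery, injection and carrier cannot be told apart in comparisons with that group.

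DNA methylation in mammals is copied after replication by Dnmt1, which Uhrf1 brings to half-methylated sites, and is laid down anew by Dnmt3a and Dnmt3b. The Tet enzymes oxidise 5-methylcytosine, a first step in its removal. Ezh1 and Ezh2 are the alternative catalytic subunits of Polycomb repressive complex 2 (PRC2), which methylates lysine 27 of histone H3, and Ash1l is a methyltransferase for lysine 36 of histone H3. Liver cells of adult mice divide little at rest and enter the cell cycle after injury, when Dnmt1, Uhrf1 and Ezh2 are typically made in S phase.

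The sequence that the inhibitor is directed against is shown, with the places where a full 7-letter complement of its seed occurs in the members. The mature mouse miR-873a-5p (RefSeq, GRCm38.p6, chr4:36668556-36668576, minus strand) has its seed, bases 2 to 8, in capitals.
miR-873a-5p: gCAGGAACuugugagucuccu
The 7-letter complement of the seed, GTTCCTG, was searched in the longest 3′ untranslated region of each gene in the GENCODE annotation. It occurs in 14.33% of the 20388 genes with such a region, and in 3 of the 10 members, Ezh1, Tet1 and Tet2. In the other members these letters are not in the region searched. Capitals mark the complement of the seed in the lines that follow.
Ezh1: cagccgcccactcttgGTTCCTGctgtcc
Tet1: agagggtttataacagGTTCCTGcaataa
Tet1: gtgttaactctacacaGTTCCTGgtgctt
Tet2: gttgagtccacatcagGTTCCTGcaaggt
The regions searched in the members were long, with a median of 2059 bases against 982 bases over all genes, and longer regions hold any 7 letters more often. A match is a description of the letters and not a site of action.

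Promoter stretches are shown only for the members that held a match to the motifs searched, Dnmt1 and Uhrf1. The 250 bases before each RefSeq start site (GRCm38.p6) were searched on both strands for TTTCGCGC and TTTGGCGC, forms of the sequence that E2F factors of the cell cycle bind. Of the 10 members 9 had a window, 14 windows in all, and Ash1l had none in the table used. Either motif occurs in 0.6545% of the 32851 windows of all genes. Among the members only 2 windows held a match, for Dnmt1 (219 bases before its start 3, chr9:20952824-20952853, minus strand) and for Uhrf1 (185 bases before its start 2, chr17:56304117-56304146, plus strand). The window of Ezh2, which rose with Dnmt1 and Uhrf1 in the data below, held no match. Capitals mark the motif, which lies on the opposite strand in Dnmt1.
Dnmt1: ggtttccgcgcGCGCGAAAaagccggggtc
Uhrf1: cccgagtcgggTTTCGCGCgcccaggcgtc
The number of CG pairs ranged from 2 to 51 in the members' windows, with a median of 6 over all windows. The windows with a match held 26 (Dnmt1) and 30 (Uhrf1). The motif found itself contains CG pairs, and the share of 0.6545% was not adjusted for their number. A match here too is a description of the letters and not a site of action. The highest number, 51, was in Tet2, and 40 and 38 were found at a pair of Dnmt3a starts. The data hold no methylation values, so nothing on the state of these CG pairs was measured.

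Counts were compared in 3 tables: miR-Ctrl BDL against no BDL (4 against 5 mice), anti-miR-873-5p BDL, also against no BDL (4 against 5 mice), and the ligated groups against each other (3 against 3 mice). Both comparisons with no BDL share the same 5 mice. The third table lacks mouse 3 of miR-Ctrl BDL and mouse 2 of anti-miR-873-5p BDL, and the study's methods state that outliers were filtered. Total counts per mouse ran from 12185333 to 19689037, and 4 of the 5 no BDL libraries were deeper than every library of ligated mice. Values below are normalised read counts, that is edgeR's CPM after TMM scaling within a table, and values of different tables are on different scales. Anti-miR-873-5p mouse 2 stood apart from its group. Its summed cholangiocyte markers were 210.0 normalised counts, against 1073 to 1464 in the other 3 mice of its group and 59.5 to 133 in no BDL. Calls and ratios that moved when either of these mice was left out are given both ways.

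**Figure D1:**
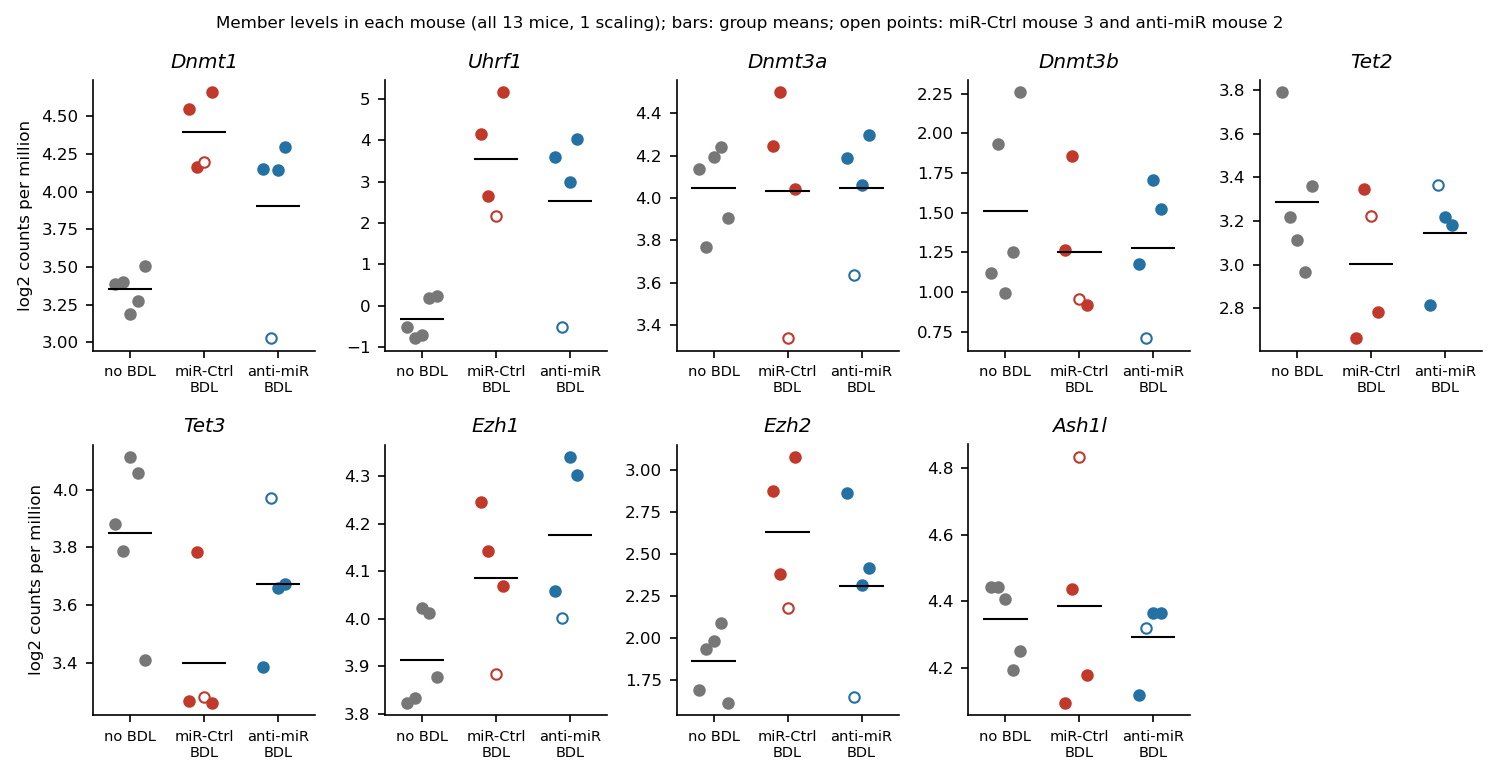
Level of each tested member in all 13 mice as log2 CPM (vertical axis, 1 scaling for all mice) in the 3 groups, with points for mice and bars for group means. Open points are mouse 3 of miR-Ctrl BDL and mouse 2 of anti-miR-873-5p BDL, and the latter lies within the no BDL range for Uhrf1 and Ezh2 and below it for Dnmt1.

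After ligation with miR-Ctrl, 3 members rose and none fell among the 9 that passed the filter on low counts. They were Dnmt1 and Uhrf1, which keep DNA methylation in place after replication, and Ezh2, the PRC2 subunit of dividing cells. The 6 other tested members, Dnmt3a, Dnmt3b, Tet2, Tet3, Ezh1 and Ash1l, did not pass the test. In this comparison 35.7% of all 13072 genes tested passed (edgeR's quasi-likelihood test, Benjamini-Hochberg adjusted p under 0.05), 19.1% as higher and 16.6% as lower, so that a share of 3 in 9 is near the background. With anti-miR-873-5p against no BDL, Uhrf1 rose and the other 8 tested members did not pass, where 21.5% of 13130 genes passed, 13.1% as higher and 8.44% as lower. Without anti-miR-873-5p mouse 2, Dnmt1, Uhrf1, Ezh1 and Ezh2 passed, 4 of 9 where 31.7% of 13597 genes passed, 18.4% as higher. When the ligated groups were compared with each other, 0 members passed, as did 0% of 13746 genes (863 genes had an unadjusted p under 0.05, and DESeq2's Wald test called 30 genes, none a member).

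**Figure D2:**
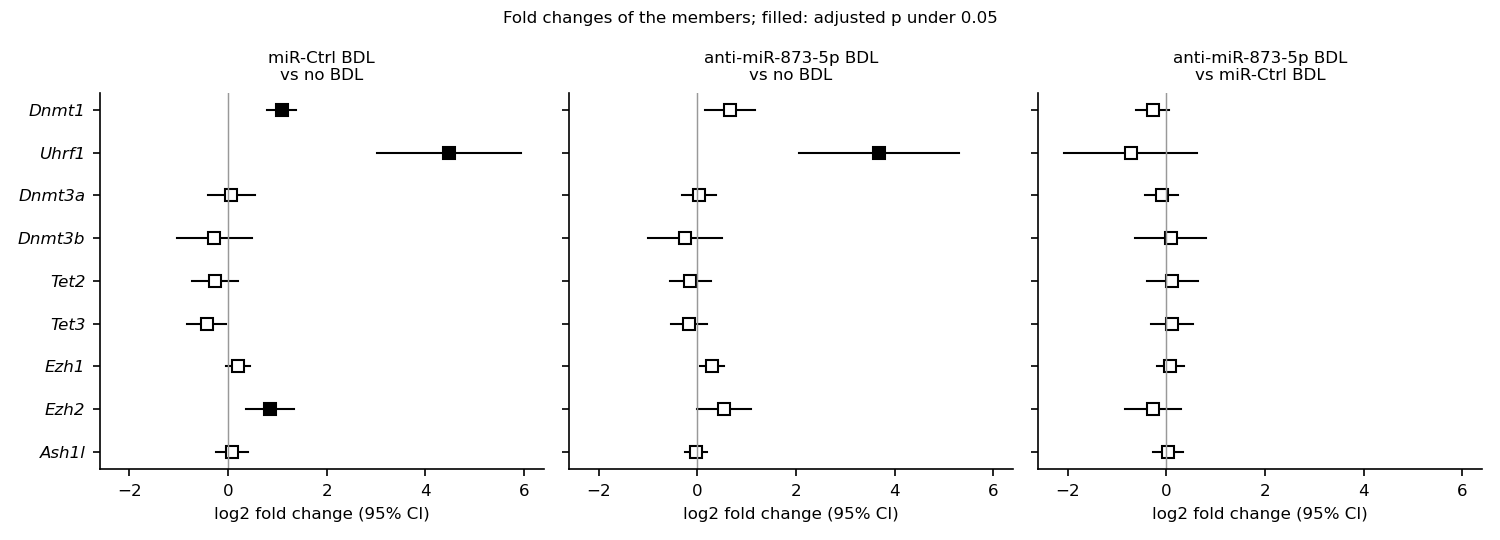
Log2 fold change (horizontal axis) of the 9 tested members in the 3 comparisons, with lines for the 95% confidence interval and filled squares for an adjusted p under 0.05. Uhrf1 lies farthest from 0 in all 3 panels, and its interval spans 0 only between the ligated groups.

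Uhrf1 (chr17:56303337-56323486, plus strand, GRCm38), which recognises half-methylated DNA and recruits Dnmt1, gave the largest fold change of the members. In no BDL its normalised counts were 0.492, 0.395, 0.421, 0.880 and 0.917, resting on 5 to 14 reads per mouse. In miR-Ctrl BDL they were 15.8, 5.54, 3.83 and 31.4, from 56 to 628 reads. Every miR-Ctrl BDL mouse lay above every no BDL mouse, and the miR-Ctrl BDL mice also differed widely among themselves. The log2 fold change was 4.48 (SE 0.654, 95% CI 3.02 to 5.94, adjusted p = 0.000932, edgeR), a 22.3-fold rise, and 0.543% of the genes tested had a larger one. With each mouse left out in turn it ran from 3.73, without mouse 4 of miR-Ctrl BDL, to 4.78, without mouse 3 (adjusted p = 0.000267, edgeR).

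In anti-miR-873-5p BDL the Uhrf1 normalised counts were 10.9, 0.505, 7.08 and 14.7, beside 0.403 to 0.936 in no BDL on the scale of that table. Mouse 2 lay within the no BDL range, and the other 3 lay above it. The log2 fold change was 3.69 (SE 0.731, 95% CI 2.06 to 5.31, adjusted p = 0.00852, edgeR), and without mouse 2 it was 4.06 (SE 0.323, adjusted p = 0.000249, edgeR). In the comparison of ligated groups, Uhrf1 counts were 15.4, 9.89 and 20.6 with anti-miR-873-5p and 22.9, 7.95 and 45.3 with miR-Ctrl. The groups overlapped, and the log2 difference was -0.73 (SE 0.571, 95% CI -2.07 to 0.62, adjusted p = 0.848, edgeR), an interval that holds no change as well as a 4-fold decrease. The difference rested on single mice, at -0.0084 without mouse 4 of miR-Ctrl BDL and -1.15 without its mouse 2. Of the 50-base windows of the Uhrf1 transcripts, 15.39% also occur in Gm5648 or Gm15953, so reads there are uncertain, and how the authors' counting treated them is not given in the sources used here.

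Dnmt1 (chr9:20907206-20959888, minus strand), the maintenance DNA methyltransferase, rose in all 4 miR-Ctrl BDL mice. Its normalised counts were 8.93, 9.17, 7.80, 8.33 and 9.83 in no BDL and 20.8, 15.9, 15.9 and 22.2 in miR-Ctrl BDL. The groups did not overlap, which was also so for Uhrf1 and Ezh2 and for 29.6% of all genes tested (18.3% with anti-miR-873-5p, where no member's groups were apart). The means were 18.7 ± 3.28 (SD, n = 4) and 8.81 ± 0.781 (SD, n = 5), with a log2 fold change of 1.09 (SE 0.134, 95% CI 0.79 to 1.38, adjusted p = 0.000450, edgeR). With anti-miR-873-5p the counts were 16.0, 7.07, 16.0 and 17.7, against 7.95 to 10.03 in no BDL. Mouse 2 lay below all 5 no BDL mice, and the log2 fold change of 0.66 (SE 0.231, 95% CI 0.15 to 1.18) did not pass (adjusted p = 0.0667, edgeR). Without that mouse the value was 0.87 (SE 0.103) and passed (adjusted p = 0.000921, edgeR).

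In the third table Dnmt1 was at 22.6, 22.4 and 24.8 normalised counts with anti-miR-873-5p and at 30.1, 22.8 and 32.0 with miR-Ctrl. The groups overlapped by the lowest miR-Ctrl mouse. The log2 difference was -0.28 (SE 0.142, 95% CI -0.62 to 0.05, adjusted p = 0.782, edgeR).

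Of the enzymes that set new DNA methylation, neither passed the test. Dnmt3a (chr12:3801559-3914443, plus strand) was at 15.0, 11.9, 15.7, 16.4 and 12.97 normalised counts in no BDL and at 16.8, 20.1, 8.68 and 14.4 in miR-Ctrl BDL. The miR-Ctrl BDL mice held both the highest and the lowest value, the lowest being mouse 3. The log2 fold change was 0.06 (95% CI -0.41 to 0.54, adjusted p = 0.844, edgeR), and with anti-miR-873-5p it was 0.03 (95% CI -0.32 to 0.39, adjusted p = 0.897, edgeR).

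Dnmt3b (chr2:153649411-153687730, plus strand) was low throughout, at 1.62 to 4.06 normalised counts in no BDL and 1.55 to 3.12 with miR-Ctrl. For Dnmt3b the log2 fold change was -0.28 (95% CI -1.04 to 0.48, adjusted p = 0.556, edgeR) with miR-Ctrl and -0.25 (95% CI -1.004 to 0.50, adjusted p = 0.631, edgeR) with anti-miR-873-5p. Of its 50-base windows, 9.805% are shared with Dnmt3c, a germ line paralogue, so its reads are uncertain there. The log2 differences between ligated groups were -0.10 for Dnmt3a (95% CI -0.43 to 0.24) and 0.08 for Dnmt3b (95% CI -0.63 to 0.80), with overlapping groups.

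The Tet enzymes did not pass in any comparison. Tet3 (chr6:83362373-83457208, minus strand) was at 12.6, 12.0, 14.9, 14.4 and 9.17 normalised counts in no BDL and at 8.49, 12.2, 8.34 and 8.34 in miR-Ctrl BDL. Of the miR-Ctrl BDL mice 3 lay below all no BDL mice, and mouse 2 lay among them. The log2 fold change was -0.43 (SE 0.176, 95% CI -0.82 to -0.04, adjusted p = 0.0825, edgeR), and it passed when either mouse 2 of miR-Ctrl BDL (-0.59) or mouse 5 of no BDL (-0.53, adjusted p = 0.0284, edgeR) was left out. With anti-miR-873-5p the counts were 9.37 to 13.7 against 9.36 to 15.2, and the log2 fold change was -0.17 (95% CI -0.53 to 0.19, adjusted p = 0.495, edgeR).

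Tet2 (chr3:133463677-133545136, minus strand), well known from blood cells, ranged from 6.70 to 11.8 normalised counts in no BDL and from 5.54 to 8.97 with miR-Ctrl. The log2 fold change was -0.27 (95% CI -0.73 to 0.19, adjusted p = 0.342, edgeR), and -0.14 (95% CI -0.55 to 0.27, adjusted p = 0.629, edgeR) with anti-miR-873-5p. The differences between ligated groups on the log2 scale were 0.12 for Tet2 (95% CI -0.40 to 0.64) and 0.11 for Tet3 (95% CI -0.31 to 0.54).

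Tet1 (chr10:62804570-62887469, minus strand) was at 0 to 7 reads in every mouse and did not pass the filter. No BDL mice had 4, 0, 6, 6 and 0 reads, miR-Ctrl BDL mice 3, 4, 3 and 4, and anti-miR-873-5p BDL mice 7, 0, 7 and 6. In the third table the 3 anti-miR-873-5p mice (7, 7 and 6 reads) lay above the 3 miR-Ctrl mice (3, 4 and 4 reads), where 11.4% of the genes tested did not overlap. Fitted without the filter, the log2 difference was 0.77 (SE 0.483, adjusted p = 0.839, edgeR), so at this depth no difference in Tet1 was detectable.

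Among the histone methyltransferases, Ezh2 (chr6:47530274-47595270, minus strand) rose and its paralogue Ezh1 did not pass. Ezh2 was at 2.67, 3.24, 3.30, 3.59 and 2.56 normalised counts in no BDL and at 6.46, 4.54, 3.83 and 7.34 in miR-Ctrl BDL. The lowest miR-Ctrl BDL mouse, mouse 3, was just above the highest no BDL mouse. The log2 fold change was 0.85 (SE 0.217, 95% CI 0.37 to 1.34, adjusted p = 0.0130, edgeR). With anti-miR-873-5p the counts were 6.48, 2.65, 4.42 and 4.73, with mouse 2 at the no BDL level, and the log2 fold change was 0.55 (SE 0.244, 95% CI 0.00 to 1.09, adjusted p = 0.135, edgeR). Without mouse 2 it was 0.72 (adjusted p = 0.0201, edgeR). In ligated mice of the third table Ezh2 was at 9.18, 6.18 and 6.63 with anti-miR-873-5p and at 9.33, 6.50 and 10.6 with miR-Ctrl, which overlap, and the log2 difference was -0.27 (95% CI -0.83 to 0.30, adjusted p = 0.862, edgeR). The exons of Ezh2 overlap Gm26625 on the opposite strand over 92 bases, and the library kit does not mark strand, so reads there cannot be assigned to either.

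Ezh1 (chr11:101191115-101226463, minus strand), the PRC2 subunit of non-dividing tissue, was at 12.1 to 14.0 normalised counts in no BDL and at 16.8, 15.7, 12.7 and 14.7 in miR-Ctrl BDL, with a log2 fold change of 0.20 (SE 0.107, 95% CI -0.04 to 0.44, adjusted p = 0.170, edgeR). With anti-miR-873-5p it was at 15.0, 14.0, 18.4 and 17.8 against 12.3 to 14.2, and the value was 0.30 (SE 0.111, 95% CI 0.05 to 0.54, adjusted p = 0.0849, edgeR). Only mouse 2 of that group reached into the no BDL range, and without it the value was 0.35 (adjusted p = 0.0317, edgeR). Ash1l (chr3:88950414-89079375, plus strand) was at 15.8 to 19.0 normalised counts in no BDL and at 15.2, 19.2, 24.7 and 15.8 with miR-Ctrl, where mouse 3 was the highest. For Ash1l the log2 fold change was 0.08 (95% CI -0.24 to 0.41, adjusted p = 0.690, edgeR) with miR-Ctrl and -0.03 (95% CI -0.25 to 0.19, adjusted p = 0.849, edgeR) with anti-miR-873-5p. With inhibitor against control oligonucleotide, the log2 differences were 0.08 for Ezh1 and 0.04 for Ash1l.

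Levels of different members were compared per kilobase. Per kilobase of exon, the normalised counts in no BDL were highest for Ezh1 (2.14 ± 0.145, SD, n = 5), followed by Ash1l (1.52 ± 0.119), Dnmt3a (1.45 ± 0.193) and Dnmt1 (1.40 ± 0.124), whose ranges overlapped. Ezh2 (1.10 ± 0.157), Tet3 (1.08 ± 0.194) and Tet2 (0.930 ± 0.216) overlapped as well, and Dnmt3b (0.584 ± 0.248), Uhrf1 (0.169 ± 0.0699) and Tet1 (0.0154 ± 0.0146) came last. In miR-Ctrl BDL, the mean per kilobase of Uhrf1 was 3.86 ± 3.45 (SD, n = 4), with a range of 1.04 to 8.56 that covered those of Dnmt1 (2.97 ± 0.521), Ezh1 (2.46 ± 0.287) and Ezh2 (1.98 ± 0.584). The medians of Uhrf1 and Dnmt1 were both 2.91, and without mouse 4 the mean of Uhrf1 was 2.29, below Dnmt1 (2.78) and Ezh1 (2.48). In anti-miR-873-5p BDL, Ezh1 was again first (2.68 ± 0.348, SD, n = 4), beside Uhrf1 (2.26 ± 1.65) and Dnmt1 (2.25 ± 0.764), and these did not differ beyond their spread.

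How far the fold changes depend on the scaling was of weight here, because scaling by library size alone moved the median of all genes by 0.80 (miR-Ctrl) and 0.82 (anti-miR-873-5p) on the log2 scale against no BDL. Under it 7 members passed as higher with miR-Ctrl and 8 with anti-miR-873-5p, and every tested member had a positive fold change, but 71.6% and 76.6% of all genes passed as higher as well, so these shares of 9 are near the background. With the 20 genes with the most counts left out of the library size, the median of all genes moved by 0.36 and 0.34, and 5 and 4 members passed as higher, where 40.0% and 33.4% of all genes did. Both library size scalings raised the fold changes of all members, so a value positive under TMM could not turn negative there. The fold changes of Dnmt1, Uhrf1, Ezh2, Ezh1 and Dnmt3a were positive under every scaling, as was that of Ash1l with miR-Ctrl. Those of Dnmt3b, Tet2 and Tet3 were negative under TMM and turned positive under library size alone, as did that of Ash1l with anti-miR-873-5p. Relative to the shifted median, Dnmt3a (0.88 with miR-Ctrl under library size alone) and Ash1l (0.87) lay near it and Tet3 (0.37) below it.

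**Figure D3:**
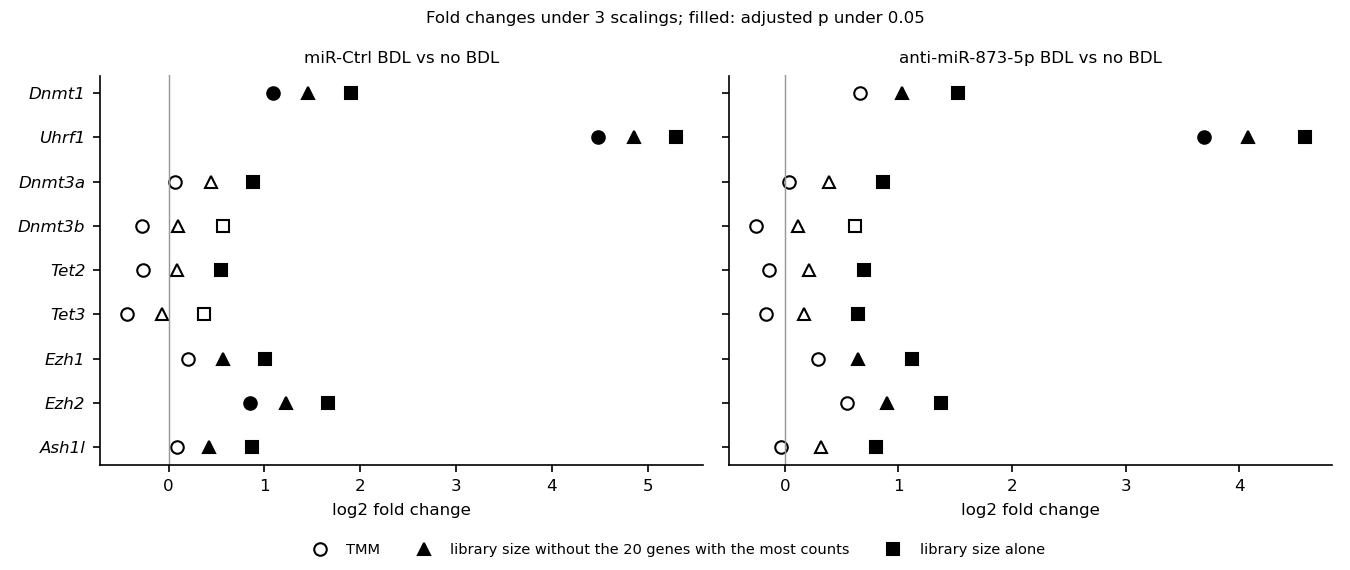
Log2 fold change (horizontal axis) of the 9 tested members against no BDL under TMM (circles), library size without the 20 genes with the most counts (triangles) and library size alone (squares), filled where the adjusted p was under 0.05. Each scaling shifts all members to the right by a similar amount, which takes Dnmt3b and Tet2 across 0 in both panels.

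Ratios between members within a library do not depend on the scaling. Of 24 ratio tests, 8 ratios in 3 comparisons, 4 passed after adjustment over all of them, all with miR-Ctrl against no BDL, each at an exact permutation p of 0.00794, the smallest that 4 against 5 mice allow (two-sided, adjusted p = 0.0476). The Dnmt1 reads per Dnmt3a read were 0.594, 0.774, 0.497, 0.509 and 0.758 in no BDL and 1.24, 0.792, 1.82 and 1.54 in miR-Ctrl BDL, a log2 difference of 1.06. The groups separated, narrowly at miR-Ctrl mouse 2. The Ezh2 reads per Ezh1 read were 0.203 to 0.263 in no BDL and 0.385, 0.291, 0.303 and 0.501 in miR-Ctrl BDL, a log2 difference of 0.61. The Uhrf1 reads per Dnmt1 read rose from 0.0472 to 0.109 in no BDL to 0.761, 0.349, 0.243 and 1.41, a log2 difference of 2.97, so Uhrf1 rose more than Dnmt1. The ratios of Dnmt3b to Dnmt3a (log2 difference -0.26, exact permutation p = 0.516) and of Tet3 to Tet2 (-0.17, exact permutation p = 0.476) did not pass.

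The other ratios set Dnmt1, Uhrf1 and Ezh2 against the summed reads of 24 DNA replication genes, among them the Mcm helicase subunits, Pcna and Cdc6. Uhrf1 rose more than this sum, from 0.00247 to 0.00526 reads per replication read in no BDL to 0.0427, 0.0268, 0.0183 and 0.0633 in miR-Ctrl BDL, a log2 difference of 3.34. The sum is weighted to the genes with the most reads, and its median level was 185 normalised counts in no BDL and 291 in miR-Ctrl BDL. By single genes the median log2 fold change was 1.33, and Cdc6 (5.04) rose more than Uhrf1 (4.48). Dnmt1 relative to the sum was 0.0423 to 0.0546 in no BDL and 0.0448 to 0.0768 in miR-Ctrl BDL, which overlap (log2 difference 0.38, exact permutation p = 0.0873, adjusted p = 0.262). Ezh2 relative to the sum differed by 0.11 on the log2 scale (exact permutation p = 0.556). With anti-miR-873-5p against no BDL, the log2 differences were 2.40 for Uhrf1 to Dnmt1 (exact permutation p = 0.0238), 2.53 for Uhrf1 to the replication sum (exact permutation p = 0.0317) and 0.56 for Dnmt1 to Dnmt3a (exact permutation p = 0.0476), and none passed the adjustment (adjusted p = 0.114, 0.127 and 0.163). In each of these, mouse 2 lay within the no BDL range and the other 3 mice above it. Without mouse 2 the log2 differences were 3.17, 3.396 and 0.72 (unadjusted exact permutation p = 0.0179, 0.0179 and 0.0357), with 0.0179 the smallest that 3 against 5 mice allow. Between the ligated groups no ratio passed, with 3 against 3 mice allowing no exact permutation p below 0.1.

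**Figure D4:**
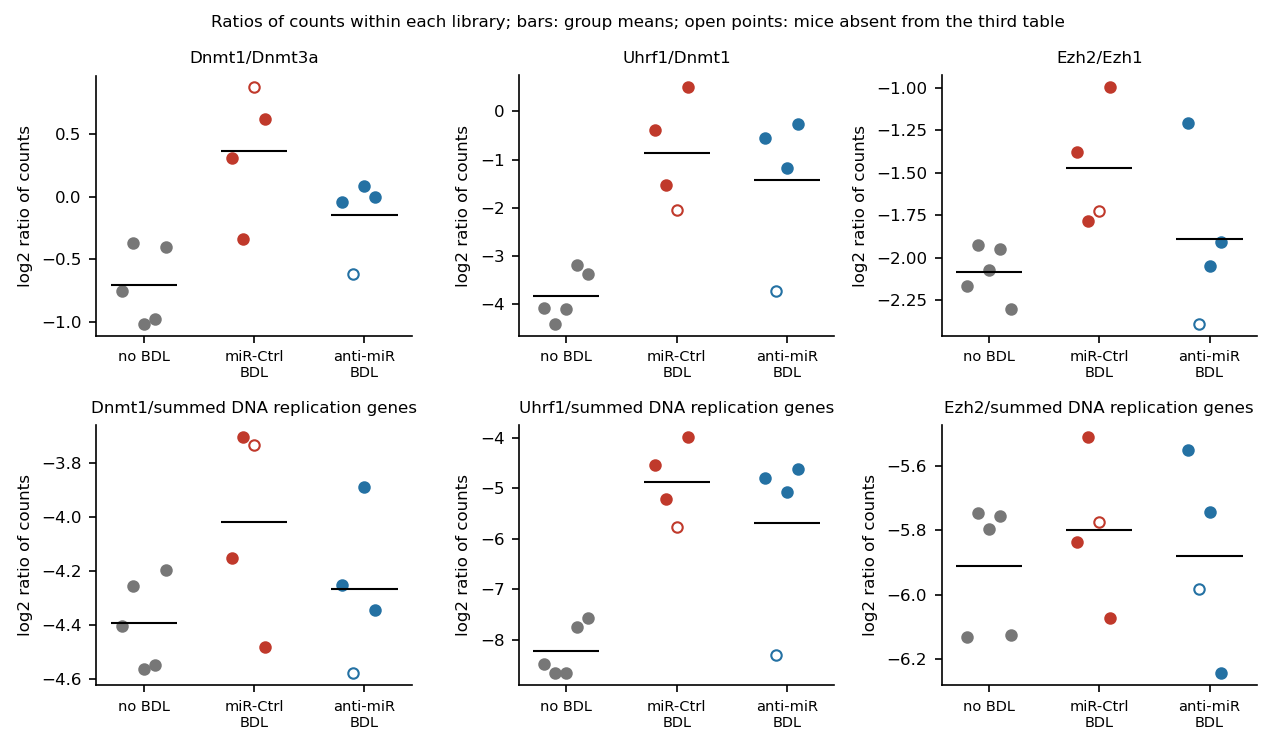
Log2 ratios of read counts within each library (vertical axis) in the 3 groups for 6 of the ratios, with points for mice, bars for means and open points for mouse 3 of miR-Ctrl BDL and mouse 2 of anti-miR-873-5p BDL. Uhrf1 relative to Dnmt1 and to the replication genes is higher in all 4 miR-Ctrl BDL mice than in any no BDL mouse.

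The genes around the members changed unevenly. Over all genes tested, 19.1% passed as higher and 16.6% as lower with miR-Ctrl, and 13.1% and 8.44% with anti-miR-873-5p. Of the 24 DNA replication genes 16 rose and 1 fell with miR-Ctrl, with a median log2 fold change of 1.33 against -0.01 over all genes tested. Cdc6, which loads the replicative helicase, gave 5.04 (SE 0.846, adjusted p = 0.00183), and its subunits Mcm6 and Mcm5 gave 2.68 (SE 0.484) and 2.61 (SE 0.496, edgeR). The gene that fell was Tyms, thymidylate synthase (-0.48, SE 0.0870), named after its value was seen, and it passed as lower under TMM but not under either library size scaling. With anti-miR-873-5p 11 of 23 rose and 1 fell (median 0.86), and 17 of 24 rose without mouse 2, where 18.4% of all genes did. In the ligated groups compared directly, 0 of 24 passed, with a median of -0.30 against 0.01 over all genes.

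Of 9 partners of PRC2, 1 rose and 1 fell. Aebp2, an accessory subunit, rose (0.75, SE 0.127, adjusted p = 0.00195, edgeR) and Rbbp4, a histone-binding subunit shared with other complexes, fell (-0.79, SE 0.161, adjusted p = 0.00461, edgeR) with miR-Ctrl, and the median was -0.06. Of 29 genes in a list of other histone lysine methyltransferases and subunits of their complexes, 2 rose, Setd7 (0.81, SE 0.192) and Kmt5a (0.76, SE 0.164), and 6 fell, among them Nsd3 (-0.91, SE 0.149), with a median of -0.13. The subunits without enzyme activity of their own, Ash2l, Wdr5, Rbbp5 and Dpy30, were among those that did not pass. Of 18 lysine demethylases, Kdm2b rose (0.48, SE 0.142), Kdm5b fell (-0.69, SE 0.208) and 16 did not pass. The same numbers with anti-miR-873-5p were 1 and 1 of 9, 2 and 2 of 29, and 1 and 1 of 18. Of all genes tested, 19.1% rose and 16.6% fell with miR-Ctrl, and 13.1% and 8.44% with anti-miR-873-5p. The counts in these 3 lists are thus near or below the background. Calls of lower genes depended on the scaling: with miR-Ctrl, library size alone gave 0 lower genes in each of these 3 lists and 22 higher ones among the 29, where 71.6% of all genes passed as higher.

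Of 13 tested genes that read DNA methylation or repair the bases derived from it, 2 rose with miR-Ctrl and none fell. The background over all genes tested was 19.1% higher and 16.6% lower with miR-Ctrl, and 13.1% and 8.44% with anti-miR-873-5p. The genes that rose were Gadd45b, a stress-induced gene linked to demethylation (2.95, SE 0.313, adjusted p = 0.000215, edgeR), and Mbd2, a methyl-CpG binding protein (0.44, SE 0.0780, adjusted p = 0.00256, edgeR). Gadd45b also rose with anti-miR-873-5p (2.53, SE 0.398, adjusted p = 0.00344, edgeR), and Mbd2 was at 0.13 (adjusted p = 0.304, edgeR). A list of 7 genes held enzymes that supply or clear the methyl donor S-adenosylmethionine, together with genes related to them. Of the 7, 3 fell with miR-Ctrl: Gnmt, glycine N-methyltransferase (-1.49, SE 0.193, adjusted p = 0.000546), Ahcy, which hydrolyses S-adenosylhomocysteine (-1.12, SE 0.346, adjusted p = 0.0291) and its relative Ahcyl1 (-0.32, SE 0.0960, adjusted p = 0.0258, edgeR). Ahcyl1 is counted as a relative, and its part in methyl donor handling was not examined. Against no BDL, the anti-miR-873-5p values were -0.88 for Gnmt (SE 0.392, adjusted p = 0.135), -0.37 for Ahcy and -0.22 for Ahcyl1 (edgeR). Between the ligated groups (3 against 3 mice) the log2 differences were 0.10 for Gnmt (SE 0.384), 0.27 for Ahcy (SE 0.172) and -0.0016 for Ahcyl1 (SE 0.113). No gene of this list was called there, so a difference between inhibitor and control was not shown. With anti-miR-873-5p against no BDL, 0 of these 7 passed, and 2 did without mouse 2, where 31.7% of all genes passed. That mouse had a summed level of 15075 normalised counts for these genes, against 2731 to 3002 in the other 3 and 3984 to 6417 in no BDL. With miR-Ctrl, mouse 3 was likewise apart, at 8305 against 1501 to 2606 in the other 3 and 3888 to 6273 in no BDL, and without it 4 of the 7 fell. Without mouse 3, 20.1% of all genes passed as lower. Under library size alone 1 of the 7 passed as lower and 3 as higher with miR-Ctrl, where 71.6% of all genes passed as higher.

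**Figure D5:**
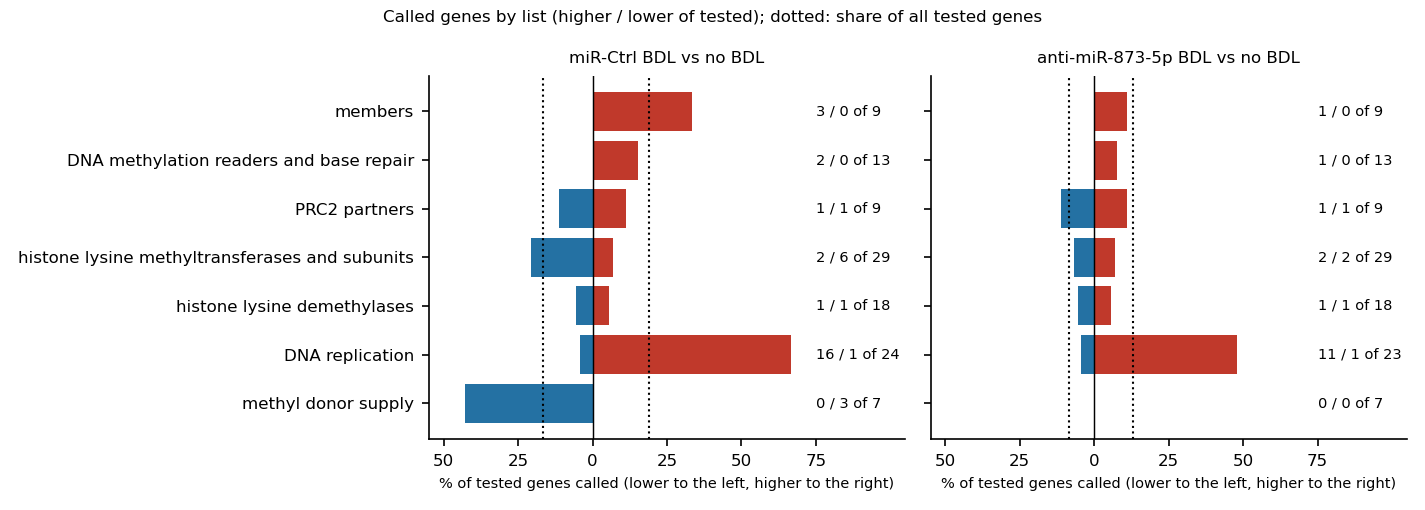
Percent of tested genes called higher (to the right) and lower (to the left) in each list of members and related genes (marker lists are not shown), for both comparisons with no BDL, with the number of genes beside each bar and dotted lines at the share over all genes tested. Of the lists shown, DNA replication reaches farthest to the right, with 16 of 24 and 11 of 23 genes higher.

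Markers of cell types moved with ligation, and their part in the members' changes was not tested. In whole liver, more cells of a type and more RNA per cell cannot be told apart. With miR-Ctrl, 6 of 7 cholangiocyte markers rose, and their summed level was 58.4 to 130.0 normalised counts in no BDL and 416 to 1484 in miR-Ctrl BDL. Macrophage markers rose in 6 of 7 cases (116 to 525.5 against 731 to 1243), neutrophil markers in 4 of 5 (7.12 to 18.2 against 20.8 to 181) and stellate cell and fibroblast markers in 6 of 8 (51.8 to 95.05 against 165 to 574). Of 8 hepatocyte markers 4 fell and 1 rose, with sums of 114957 to 122299 and 72963 to 102253, so the tissue had the markers of its label in every group. No endothelial marker of 6 passed, while 1 of 2 tested lymphocyte markers and 1 of 3 tested red cell markers fell. These lists held 8 and 6 genes, and those not tested were absent or under the filter on low counts. The number tested changes with the mice used. Summed lymphocyte markers were low, at 3.73 to 7.80 normalised counts in no BDL and 0.820 to 5.40 in miR-Ctrl BDL. The shares over all genes tested were 19.1% higher and 16.6% lower, and 22.2% and 20.1% without mouse 3 of miR-Ctrl BDL. Without mouse 3 of miR-Ctrl BDL, 6 of 8 hepatocyte markers fell and 1 rose, 7 of 7 macrophage and 7 of 8 stellate markers rose, 1 of 6 endothelial and 2 of 5 lymphocyte markers fell, and the other counts were the same.

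With anti-miR-873-5p, 6 of 7 cholangiocyte, 2 of 7 macrophage, 3 of 4 neutrophil and 5 of 8 stellate markers rose, 2 of 8 hepatocyte markers fell, and 1 marker each fell among 6 endothelial, 2 lymphocyte and 4 red cell markers. Without mouse 2, 7 of 7 cholangiocyte, 5 of 7 macrophage and 7 of 8 stellate markers rose, 4 of 8 hepatocyte and 1 of 4 lymphocyte markers fell, and the other counts were the same. Anti-miR-873-5p mouse 2, which was low in Uhrf1, Dnmt1 and Ezh2, was also lowest in its group for summed cholangiocyte (210.0) and stellate markers (116) and for the replication genes (170, against 179 to 199 in no BDL). The shares over all genes with anti-miR-873-5p were 13.1% higher and 8.44% lower, and 18.4% and 13.4% without mouse 2. No marker of any list passed between the ligated groups, at 0 of all tested. By mouse, the cholangiocyte sums were 1028, 1484, 416 and 949 in miR-Ctrl BDL and 1073, 210.0, 1174 and 1464 in anti-miR-873-5p BDL. The replication sums were 371, 208, 211 and 496 and then 305, 170, 238 and 360. Each group is on the scale of its own comparison with no BDL, so these sums serve to compare mice within a group only. In anti-miR-873-5p BDL, mouse 4 was highest and mouse 2 lowest in both sums and in Uhrf1. In miR-Ctrl BDL, mouse 3 was lowest in the cholangiocyte sum and in Uhrf1, mouse 2 was highest in the first and mouse 4 in the second and in the replication sum. What these sums contribute to the level of Uhrf1 was not tested.

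Across all 13 mice the levels of Dnmt1, Uhrf1 and Ezh2 ran together. Pearson's r of log2 levels was 0.963 for Dnmt1 and Uhrf1, 0.907 for Uhrf1 and Ezh2 and 0.866 for Dnmt1 and Ezh2, and among the 8 ligated mice alone it was 0.948, 0.928 and 0.862. These values are descriptions, since mice of a group share their treatment and all genes of a library share its scaling. Tet3 ran against Dnmt1 (-0.792) and Tet2 against Ezh2 (-0.802), with -0.771 and -0.878 among the ligated mice. Dnmt3a and Dnmt1 had an r of 0.217, and Ezh1 and Ezh2 of 0.579.

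The genes whose levels were most like those of 5 of the members were sought among 13306, and several were shared between the lists of Dnmt1, Uhrf1 and Ezh2. For Uhrf1 they were Top2a (r = 0.988), Mcm6 (0.979), Mcm5 (0.979), Melk (0.979) and Smc2 (0.978). Dnmt1 was most like Spdl1 (0.973), Melk (0.966), Aurkb (0.963), Uhrf1 and Top2a (0.959), and Ezh2 most like Tacc3 (0.952), Siae (0.950), Sgo2a (0.949), Rrm1 (0.940) and Smc2 (0.939). Top2a, Aurkb, Smc2, Tacc3, Spdl1 and Sgo2a encode proteins of chromosome structure and mitosis. For Dnmt3a the nearest were Swap70 (0.926), Arhgap39 (0.918), Plxnd1 (0.916), Iqce (0.899) and Flt3l (0.890), and for Tet2 they were Nfia (0.924), Cntd1 (0.880), Zmym2 (0.856), Kdm7a (0.849) and Prdm2 (0.833), over the same 13 mice.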

How the data were processed

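Liver RNA libraries (TruSeq RNA v2, unstranded, single reads of 50 nt) were mapped by the authors to mm10 with TopHat, and they deposited raw counts of reads per Entrez gene in 1 table per comparison. The counting program is not given in the sources used here, and the submitters' processing notes also name CASAVA 1.8.2, FastQC, Trim Galore and DESeq2. Groups came from the labels, which do not pair mice. Members and gene lists were chosen with earlier results of these data known.

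Counts were filtered with filterByExpr, scaled by TMM and tested with edgeR 4.0.16 (quasi-likelihood, Benjamini-Hochberg adjusted p under 0.05) in R 4.3.3, on the mice of each table. The SE is the absolute log2 fold change over the square root of F. The code was tested on simulated data. Alternatives were library size alone or without the 20 genes with the most counts, DESeq2 1.42.0 size factors or its Wald test, other filters, all groups in 1 fit, number blocks, all 4 mice per BDL group and leaving out each mouse. Ratios used raw counts with 0.5 added (alternatively 1) and exact permutation over mice by the absolute difference of means. All 13 mice were combined over 22603 genes whose counts differed by at most 1 read or 1% between tables. Named genes are the 10 members, up to 3 passing genes of largest fold change per list with miR-Ctrl, and the 5 genes most correlated with each of 5 members. Symbols came from RefSeq by Entrez ID (71 IDs of the table with miR-Ctrl and no BDL had none), and coordinates, exons and transcripts from GENCODE M21 (GRCm38). Protein sequences were not used here. All columns of values were used. Whether mice shared cages or batches is not stated.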

Additional observations from a re-analysis of the deposited data

Results flagged for a closer look

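In 54 groups of values (members and ratios in groups of 4 or 5 mice), single mice far from the others of their group were sought with Dixon's test at the 95% level, by which chance marks about 1 group in 20. It marked 3. Dnmt1 in anti-miR-873-5p BDL mouse 2 was at 7.07 normalised counts, against 16.0 to 17.7 in the other 3 mice, in the table against no BDL. Tet3 in miR-Ctrl BDL mouse 2 was at 12.2 normalised counts, against 8.34 to 8.49 in the others. Tet1 in miR-Ctrl BDL mouse 1 was at 0.153 normalised counts, against 0.200 to 0.205, a gap that rests on 3 reads against 3 and 4.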

How the results depend on the processing

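The number of members called with miR-Ctrl against no BDL, 3, became 7 under library size alone and 5 without the 20 genes with the most counts, was 2 to 3 under the other settings, and 3 to 4 when single mice were left out. With anti-miR-873-5p against no BDL, 1 became 8, 4, 2 with DESeq2's Wald test and 2 with all 3 groups in 1 fit (Dnmt1 added in both), and 1 to 4 without single mice, the 4 being without anti-miR-873-5p mouse 2. Between the ligated groups it was 0 under every setting, while DESeq2's Wald test called 30 of all genes, none a member, and 863 genes had an unadjusted p under 0.05 in edgeR. The count of 4 ratios became 0 when any mouse of the table with miR-Ctrl and no BDL was left out, since the smallest p then rises, and stayed at 4 otherwise (range 0 to 4).

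Same-numbered mice did not all deviate together (12 pairs, r from -0.375 to 0.535, 2 over 0.1). The pairs over 0.1 were ligated mice 1 (0.535) and 4 (0.216), while ligated mice 2 and 3 gave -0.375 and -0.348. The numbers were treated as names, but so few pairs cannot exclude a pairing. With the number as a replicate block, 2 members passed with miR-Ctrl (Ezh2 at 0.76, adjusted p = 0.0576), 1 with anti-miR-873-5p and 0 between the ligated groups. Under the block Dnmt3a turned to -0.022 with miR-Ctrl, -0.013 with anti-miR-873-5p and 0.10 between the ligated groups.

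Signs also turned under library size alone for Dnmt3b (0.56), Tet2 (0.55) and Tet3 (0.37) with miR-Ctrl, and for Dnmt3b (0.62), Ash1l (0.80), Tet2 (0.70) and Tet3 (0.64) with anti-miR-873-5p. Without the 20 genes they turned for Dnmt3b (0.10) and Tet2 (0.089) with miR-Ctrl, and for Dnmt3b (0.12), Ash1l (0.32), Tet2 (0.21) and Tet3 (0.17) with anti-miR-873-5p. Between the ligated groups Ash1l turned to -0.12 with all 3 groups in 1 fit and to -0.12 with all 4 mice per group. The cause was not tested, beyond the shift of all genes that these scalings bring.

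With single mice left out, signs turned in these ranges of log2 values. With miR-Ctrl against no BDL they were -0.11 to 0.24 for Dnmt3a and -0.087 to 0.17 for Ash1l. With anti-miR-873-5p against no BDL they were -0.056 to 0.15 for Dnmt3a, -0.068 to 0.017 for Ash1l, -0.22 to 0.0053 for Tet2, and for ratios -0.033 to 0.36 (Ezh2 to Ezh1), -0.079 to 0.15 (Ezh2 to replication) and -0.16 to 0.10 (Tet3 to Tet2). Between the ligated groups they were -0.027 to 0.15 for Ash1l, -0.20 to 0.030 for Dnmt3a, -0.12 to 0.40 for Dnmt3b, -0.0090 to 0.36 for Tet2, and for ratios -0.45 to 0.030 (Dnmt1 to Dnmt3a), -0.23 to 0.16 (Dnmt1 to replication), -0.19 to 0.16 (Ezh2 to replication), -0.047 to 0.038 (Tet3 to Tet2), -0.72 to 0.29 (Uhrf1 to Dnmt1) and -0.56 to 0.056 (Uhrf1 to replication). Depth limits Tet1, Uhrf1 in no BDL and Dnmt3b most.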
